A study of Mus musculus with 12 samples.

Results

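Gene expression was compared between Piezo1 KO and WT cells after 1 day at 37 °C, across all expressed genes. The 2 KO and 2 WT libraries of that day, taken by their labels, are 4 of the 12 libraries of the series. Both lines are OCY454, a mouse osteocyte-like cell line that multiplies at 33 °C and matures once it is moved to 37 °C. The KO line carries a CRISPR-Cas9 deletion that takes out Piezo1 exons 19 to 21, and the WT line is labelled as wild type. Both lines were grown in alpha-MEM with 10% FBS and 1% anti-anti in 12-well plates, so genotype is the only difference that the labels name. Poly(A) RNA was sequenced and the deposited values are read counts per gene. The labels do not say whether replicates are separate cultures or from how many edited clones the KO line came, so the p-values speak of the variation among these samples, which may be technical.

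Piezo1 forms a cation channel that opens when the plasma membrane is stretched and lets calcium into the cell. Osteoblasts, which lay down bone, and osteocytes, which live inside it, use the channel to sense load and fluid flow. Day 1 is the first day after the shift to the differentiation temperature, and the comparison asks how cells with the Piezo1 deletion differ before most of the maturation has taken place.

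The WT libraries held 14696779 and 14509583 counts and the KO libraries 11629055 and 13479121. Replicates were close: more than 1.5-fold apart were 5 of the 9305 genes with at least 10 CPM in WT, and 3 of 9227 such genes in KO. CPM are counts scaled to a common library size. Mitochondrially encoded genes took 1.35% and 1.8% of the counts in WT and 2.31% in each KO library, and 18095 and 18173 genes had a count in WT against 17073 and 17226 in KO. The part of these library differences in the results was not tested.

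Piezo1 itself (ENSMUSG00000014444.17) lies on the minus strand of chromosome 8 from 122481698 to 122551329 in GRCm38/mm10, and was read at 216 and 214 CPM in WT and at 170 and 169 CPM in KO. The KO libraries lay below the WT libraries without overlap, and the log2 fold change was -0.34 ± 0.06 (standard error, adjusted p = 9.07e-05, edgeR quasi-likelihood test). A deletion of 3 exons leaves most of the gene countable, so this value says little about the loss of the protein. Ctu2 has exons antisense to Piezo1, and whether reads were counted by strand is not given in the sources used here.

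At day 1 5544 of 13772 genes tested (40.3%) were called at an adjusted p below 0.05. Of the genes tested, 2685 (19.5%) were higher in KO and 2859 (20.8%) were lower. Differences of more than 2-fold were less even, with 305 genes higher (2.21%) and 973 lower (7.07%). Without TMM scaling, on library totals alone, 2121 genes were higher and 3418 lower, so 38.3% of calls were higher in place of 48.4%. The median log2 fold change of all genes was -0.01. Each group of genes below is read against these shares. Among the tested genes named in the text, 256 were checked for shared exons in GENCODE vM21. Of these, 75 have exons antisense to another gene, Slc2a1, Txnip, Bnip3, Ankrd37, Aldoa, Gapdh and Ddit3 among them. On their own strand, 17 share exons with another gene. In bulk RNA, fewer cells of a type and less RNA per cell cannot be told apart.

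Among the genes that gained the most CPM were matrix genes, mitochondrially encoded genes and the filament genes Vim and Plec. Fibronectin, Fn1, an adhesive matrix protein, was at 10736 and 11966 CPM in WT and 14111 and 14280 in KO. Col6a3, a chain of the beaded-filament collagen VI, was at 2078 and 2038 CPM in WT and 3889 and 3826 in KO. Npnt, the integrin ligand nephronectin, was at 786 and 822 CPM in WT and 1612 and 1592 in KO. In each of these 3 genes both KO libraries lay above both WT libraries, with log2 fold changes of 0.32 ± 0.07, 0.91 ± 0.11 and 0.99 ± 0.10. Fn1, Col6a3 and many other higher genes lie on chromosome 1, and with the median of each chromosome taken out Fn1 was at -0.05 and not called. The genes that lost the most reads included Ibsp, the bone sialoprotein that binds mineral, at 2720 and 2679 CPM in WT and 1236 and 1179 in KO. Scd2, a fatty acid desaturase, fell from 1430 and 1396 CPM in WT to 702 and 678 in KO. Avil, the actin-severing protein advillin, fell from 359 and 390 CPM to 52.8 and 48.0. The last of these had the smallest adjusted p of the 3 genes (-2.90 ± 0.08, adjusted p = 4.39e-16), and no KO library reached a WT library in any of them.

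**Figure D1:**
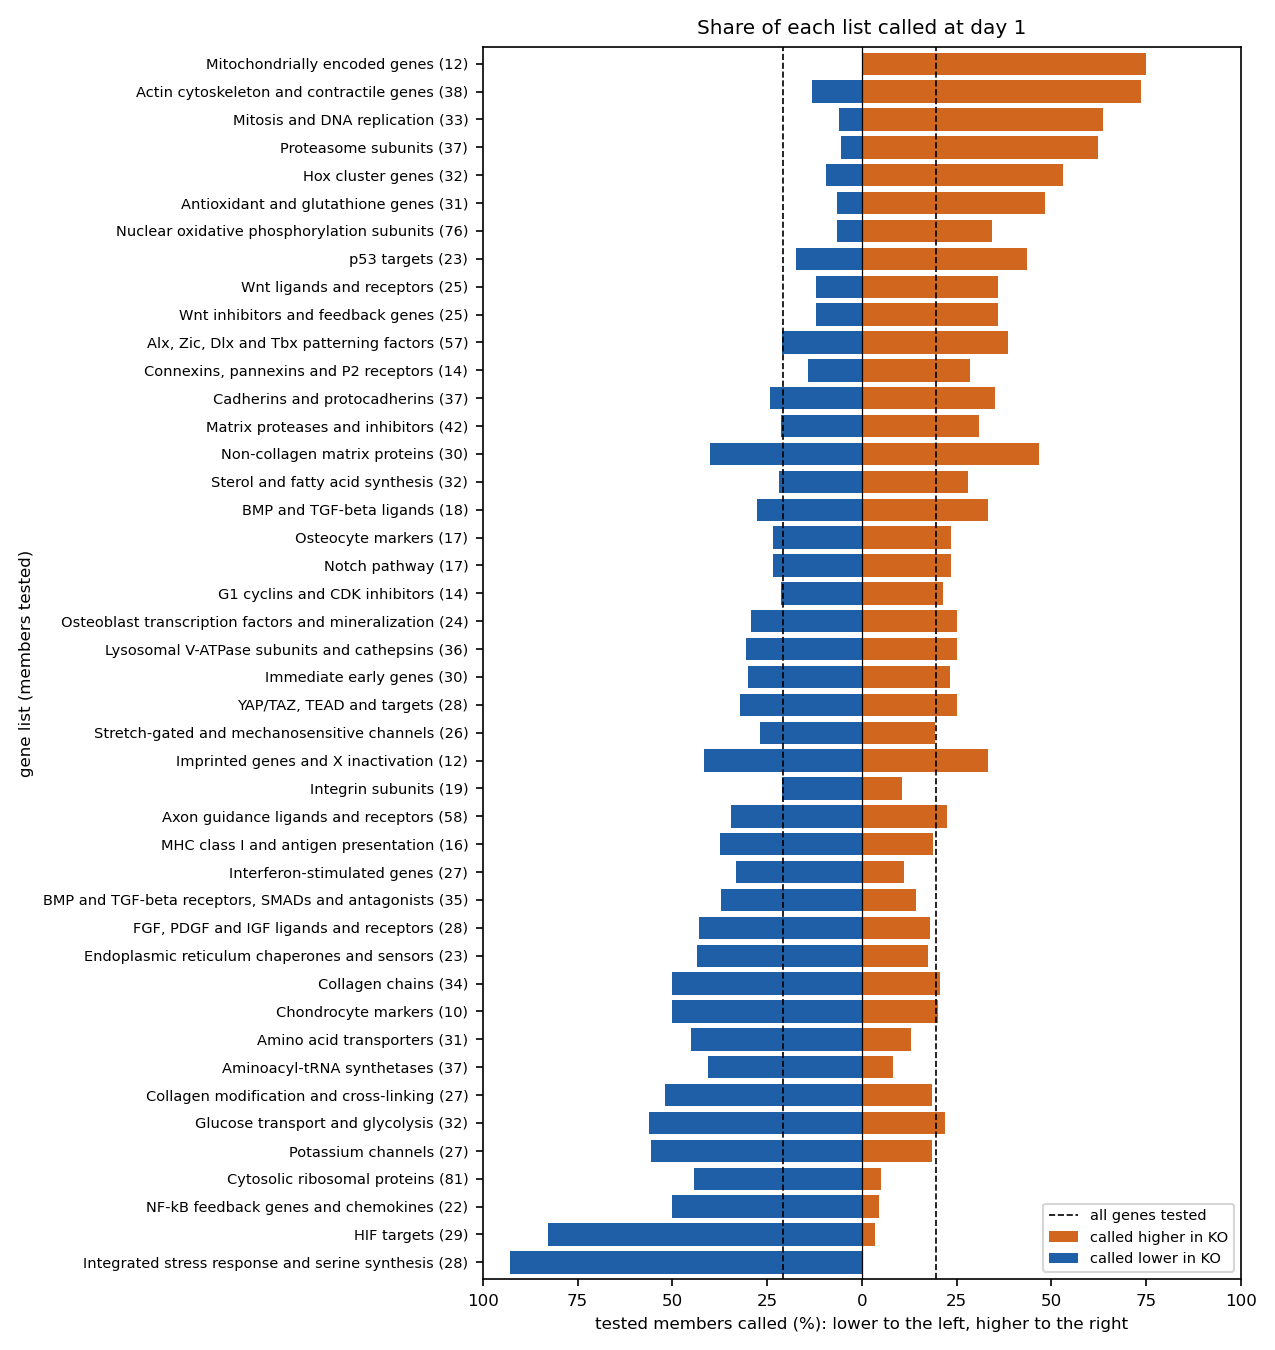
Percent of the tested members of each gene list with 10 or more members tested that were called higher (orange, right) or lower (blue, left) in KO at day 1, with the number of members tested in parentheses. Dashed lines mark the shares among all genes tested, 19.5% higher and 20.8% lower. The integrated stress response list (26 of 28 lower) and the hypoxia targets (24 of 29 lower) reach farthest to the left among these lists, and the mitochondrially encoded (9 of 12 higher) and actin (28 of 38 higher) lists farthest to the right.

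Cells adapt to low oxygen through the hypoxia-inducible factors, HIF. While oxygen is plentiful, prolyl hydroxylases encoded by the Egln genes mark HIF-1alpha for destruction through the VHL ubiquitin ligase, so the amount of the factor is set mainly at the protein level. When it accumulates, HIF pairs with ARNT, binds ACGTG or GCGTG in DNA and raises genes for glucose uptake, glycolysis, blood vessel growth and collagen hydroxylation. Bone cells make energy largely by glycolysis, and the enzymes that hydroxylate collagen are classic HIF targets.

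Most HIF targets were lower in KO at day 1. Of 29 tested HIF targets, 24 were lower and 1 higher (82.8% and 3.45%, against 20.8% and 19.5% of all genes), 18 of them by more than 2-fold, with a median log2 fold change of -1.55. Of 32 genes of glucose transport and glycolysis, 18 were lower and 7 higher (56.2% and 21.9%, with 4 higher without WT replicate 2), with a median of -0.67. The lists share Slc2a1 and Pfkfb3. Summed over its members, the HIF list took 3311 and 3232 CPM in WT and 1252 and 1263 in KO, and the glycolysis list took 5023 and 4794 CPM in WT and 2581 and 2593 in KO.

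Of these lists, 41 different genes were lower and 18 were not, and RefSeq promoters (GRCm38.p6, 250 bases before to 50 after the start) matched 34 of the 41 and 17 of the 18. ACGTG or GCGTG was searched on both strands. Only the first listed promoter of each gene was searched, here and for the stress response genes below. The palindrome CACGTG holds a match on each strand and counts as 2. At least 1 match stood in the promoters of 26 of the 34 lower genes (76.5%), of 14 of the 17 others (82.4%), of 63% of all genes tested with a promoter and of 43.8% of all 27025 promoters. At least 2 matches stood in 22 of the 34 (64.7%), 8 of the 17 (47.1%), 34.4% of genes tested and 20.8% of all promoters. The 5 sequences below are the 250 bases before the start of lower genes that held several matches, shown 5′ to 3′ on the gene's strand with the matches on either strand in capitals. They lie at chr7:138909507-138909756 on the minus strand (Bnip3), chr8:45999851-46000100 on the minus strand (Ankrd37), chr16:36071562-36071811 on the minus strand (Fam162a), chr10:59323046-59323295 on the plus strand (P4ha1) and chr7:46845554-46845803 on the plus strand (Ldha).
Bnip3: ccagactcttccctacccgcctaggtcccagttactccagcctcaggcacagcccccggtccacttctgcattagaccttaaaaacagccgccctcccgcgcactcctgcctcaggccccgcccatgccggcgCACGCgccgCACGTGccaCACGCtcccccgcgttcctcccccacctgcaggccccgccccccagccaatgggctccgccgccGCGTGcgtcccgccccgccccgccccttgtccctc
Ankrd37: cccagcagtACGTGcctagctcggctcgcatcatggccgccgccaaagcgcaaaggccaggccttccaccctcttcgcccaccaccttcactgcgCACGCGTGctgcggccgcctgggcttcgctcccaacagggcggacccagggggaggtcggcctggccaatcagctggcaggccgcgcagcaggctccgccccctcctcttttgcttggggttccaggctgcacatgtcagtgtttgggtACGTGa
Fam162a: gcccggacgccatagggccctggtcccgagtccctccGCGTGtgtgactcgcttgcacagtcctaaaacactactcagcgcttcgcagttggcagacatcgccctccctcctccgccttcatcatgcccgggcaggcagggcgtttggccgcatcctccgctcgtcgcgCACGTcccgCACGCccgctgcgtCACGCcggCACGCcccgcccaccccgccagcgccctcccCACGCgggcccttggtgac
P4ha1: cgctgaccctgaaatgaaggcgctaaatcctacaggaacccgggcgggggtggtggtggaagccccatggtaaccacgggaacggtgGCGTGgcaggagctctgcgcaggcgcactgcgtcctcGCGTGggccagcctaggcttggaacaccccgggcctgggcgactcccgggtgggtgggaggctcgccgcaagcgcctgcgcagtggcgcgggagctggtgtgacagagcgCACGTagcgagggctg
Ldha: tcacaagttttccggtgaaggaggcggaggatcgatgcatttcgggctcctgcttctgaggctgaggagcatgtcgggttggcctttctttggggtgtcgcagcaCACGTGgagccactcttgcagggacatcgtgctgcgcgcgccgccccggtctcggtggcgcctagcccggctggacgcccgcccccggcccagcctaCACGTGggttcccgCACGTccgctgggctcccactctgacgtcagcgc
Bnip3 holds 5 matches in these bases, Ankrd37 4, Fam162a 6, P4ha1 3 and Ldha 5. Vegfa, Pkm, Tpi1 and Aldoa, all lower, hold none in the window. Of these, Vegfa and Pkm have 2 promoters on record and Aldoa has 3. A match is a string of letters and was not tested for binding.

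Among targets with those promoters, Bnip3, a mitophagy receptor of the mitochondrial outer membrane, was at 161 and 151 CPM in WT and 26.9 and 29.7 in KO. P4ha1, the prolyl hydroxylase subunit that stabilises the collagen helix, was at 421 and 386 CPM in WT and 102 and 107 in KO. Ankrd37, a small ankyrin repeat protein, was at 39.8 and 34.1 CPM in WT and 3.59 and 3.83 in KO. The groups did not overlap in any of the 3 genes, and KO was lower by -2.46 ± 0.14, -1.95 ± 0.13 and -3.31 ± 0.22 on the log2 scale. Fam162a was lower as well (-2.12 ± 0.15).

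Other HIF targets showed the same gap between the lines. Vegfa, the growth factor that draws in blood vessels, was at 408 and 423 CPM in WT and 127 and 126 in KO (-1.72 ± 0.06, adjusted p = 2.55e-14). Ndrg1, a stress-responsive growth arrest gene, was at 392 and 386 CPM in WT and 137 and 129 in KO. Ak4, a mitochondrial adenylate kinase, was at 13.8 and 13.3 CPM in WT but had 5 counts in each KO library (-5.07 ± 0.34, adjusted p = 2.3e-10). In all 3 the KO libraries were nearly equal to each other and far below WT. Ero1l, an oxidase that forms disulfide bonds in the endoplasmic reticulum, was at 81.1 and 79.0 CPM in WT and 20.9 and 20.7 in KO, and Egln3, which lowers HIF in a feedback loop, at 19.4 and 22.7 against 1.37 and 2.28. The vasodilator peptide gene Adm had 62 and 57 counts in WT and 1 in each KO library. Of the 5 members not called lower, Pfkfb3 was higher and the carbonic anhydrase gene Car9, at 5.33 and 5.58 CPM in WT and 4.36 and 5.15 in KO, was not called (adjusted p = 0.48).

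Within glycolysis the lower genes followed the path from import to lactate. Slc2a1, the main glucose transporter, was at 107 and 104 CPM in WT and 22.9 and 20.2 in KO. Hk2, the hexokinase that traps glucose in the cell, was at 104 and 99.3 CPM in WT and 38.7 and 36.7 in KO. Pfkl, a subunit of the committing enzyme phosphofructokinase, was at 129.7 and 117 CPM in WT and 32.6 and 35.4 in KO. All 3 steps fell without overlap of the libraries, by -2.29 ± 0.10, -1.43 ± 0.10 and -1.86 ± 0.17. Further down, Aldoa (-1.29 ± 0.14), Gapdh (-0.87 ± 0.10), Pgk1 (-1.58 ± 0.14), Eno1 (-1.36 ± 0.13) and Pkm (-0.84 ± 0.10) were lower. Ldha, which turns pyruvate into lactate, was at 800 and 728 CPM in WT and 366 and 360.2 in KO (-1.07 ± 0.13, adjusted p = 9.57e-07). Pdk1, the kinase that keeps pyruvate out of the mitochondria, was at 186 and 176 CPM in WT and 39.0 and 36.9 in KO (-2.25 ± 0.16). Gapdh, often used to normalise expression, was thus at 282 and 292 CPM in WT and 154 and 159.7 in KO.

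Several isoforms of the same enzymes went the other way. Eno3, the muscle-type enolase, was at 14.6 and 14.96 CPM in WT and 36.1 and 33.5 in KO (1.23 ± 0.12). Ldhb, the lactate dehydrogenase chain that favours the reverse reaction, was at 10.0 and 8.14 CPM in WT and 19.9 and 18.1 in KO (1.06 ± 0.15). Both remained the minor forms per length, since Ldha stood at 231 and 110 RPKM in WT and KO against 5.78 and 12.1 for Ldhb, and Eno1 at 65.5 and 25.6 RPKM against 8.51 and 20 for Eno3. Pdk2 (0.44 ± 0.13), Pdk3 (0.28 ± 0.09) and Pdk4 (0.27 ± 0.09) were higher while Pdk1 was lower, but each of these 3 calls was lost when single libraries were left out. Per length, Pdk1 was the highest of the 4 kinases in WT at 23.3 RPKM and lay below Pdk2, Pdk3 and Pdk4 (5.33, 21.7 and 10.4 RPKM) in KO at 4.88. Pfkm and Pfkp, the other phosphofructokinase subunits, were not called (0.11, adjusted p = 0.251, and 0.04, adjusted p = 0.8).

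Neither the HIF genes nor their partner gene was called lower. Hif1a was at 199 and 202 CPM in WT and 202 and 207 in KO, overlapping and not called (0.03 ± 0.06, adjusted p = 0.756). Its partner Arnt, at 242 and 238 CPM in WT and 236 and 225 in KO, was not called either (adjusted p = 0.51). Epas1, which encodes HIF-2alpha, was higher in KO, at 36.9 and 40.6 CPM in WT and 64.9 and 67.7 in KO (0.78 ± 0.09, adjusted p = 3.83e-07). Of the 8 tested genes of this machinery 1 was higher and 2, Egln1 and Egln3, were lower. Txnip, outside these regulators, rose most of the genes described here on glucose use. It encodes an arrestin that removes glucose transporters from the cell surface and binds thioredoxin, and Txnip went from 13.2 and 14.2 CPM in WT to 109 and 110.4 in KO (2.998 ± 0.10, adjusted p = 1.84e-14).

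**Figure D2:**
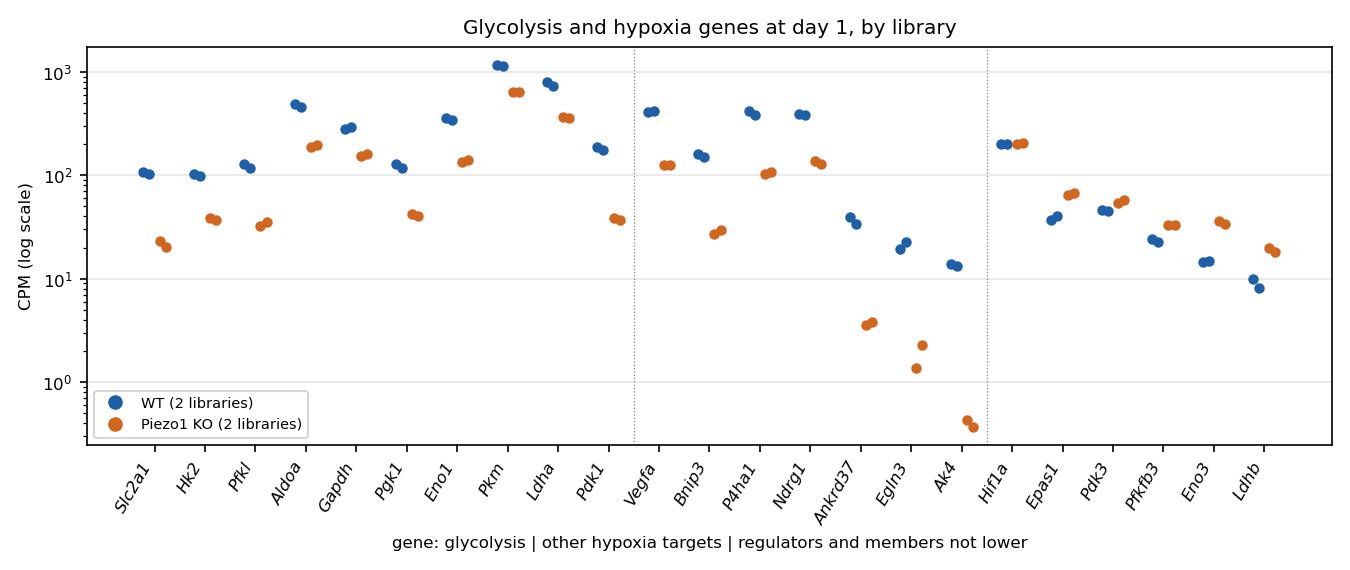
CPM on a log axis of genes of glycolysis (left), of other HIF targets (middle) and of regulators and members that were not lower (right) in the 2 WT libraries (blue) and 2 KO libraries (orange) of day 1. From Slc2a1 to Ak4 the KO points lie below the WT points, Hif1a is at 199 to 207 CPM in all 4 libraries, and Epas1, Pdk3, Pfkfb3, Eno3 and Ldhb lie higher in KO.

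The integrated stress response lets cells slow protein synthesis and restock amino acids. Kinases that sense unfolded protein, missing amino acids, double-stranded RNA or haem phosphorylate eIF2alpha, which favours translation of the transcription factor ATF4. ATF4 pairs with C/EBP proteins on elements of the type TGATGNAA and drives amino acid import, serine and asparagine synthesis and tRNA charging. Osteoblast lineage cells lean on this route because collagen synthesis consumes much glycine, proline and serine.

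Among the lists with 10 or more members tested, none had a larger share called in 1 direction. Of 28 stress response and serine synthesis genes, 26 were lower in KO, 0 were higher and 2 (Atf3 and Atf5) were not called, so 92.9% were lower against 20.8% of all genes, and the median was -0.84. Their summed level was 4020 and 4125 CPM in WT and 2486 and 2512 in KO. The transcript of Atf4 itself was lower, at 537 and 531 CPM in WT and 373 and 366 in KO (-0.53 ± 0.06).

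In the combined lists of stress response genes and aminoacyl-tRNA synthetases, 40 genes were lower and 24 were not, and RefSeq promoters matched 32 and 19 of them. TGATGNAA, on either strand, stood in the promoters of 12 of the 32 lower genes (37.5%), of 1 of the 19 others (5.26%), of 2.14% of all genes tested and of 4.06% of all promoters. Only 2 of the 28 stress response genes were not lower, so the others are nearly all synthetases, many of them mitochondrial. The shares of lower genes and of others thus compare unlike genes. The 4 sequences below are the 250 bases before the start of lower genes with a match, written as above with the match in capitals. They lie at chr3:50443614-50443863 on the minus strand (Slc7a11), chr6:7693210-7693459 on the minus strand (Asns), chr2:119350992-119351241 on the plus strand (Chac1) and chr7:126625471-126625720 on the minus strand (Nupr1).
Slc7a11: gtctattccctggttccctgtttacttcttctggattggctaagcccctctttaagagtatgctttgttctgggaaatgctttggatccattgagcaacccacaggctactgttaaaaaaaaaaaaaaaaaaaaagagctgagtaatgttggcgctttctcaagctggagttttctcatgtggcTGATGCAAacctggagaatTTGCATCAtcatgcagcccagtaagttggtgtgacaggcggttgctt
Asns: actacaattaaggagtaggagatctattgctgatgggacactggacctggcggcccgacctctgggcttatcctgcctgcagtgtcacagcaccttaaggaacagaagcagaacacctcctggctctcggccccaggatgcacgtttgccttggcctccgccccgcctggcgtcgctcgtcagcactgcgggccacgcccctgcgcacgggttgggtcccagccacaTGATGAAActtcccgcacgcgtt
Chac1: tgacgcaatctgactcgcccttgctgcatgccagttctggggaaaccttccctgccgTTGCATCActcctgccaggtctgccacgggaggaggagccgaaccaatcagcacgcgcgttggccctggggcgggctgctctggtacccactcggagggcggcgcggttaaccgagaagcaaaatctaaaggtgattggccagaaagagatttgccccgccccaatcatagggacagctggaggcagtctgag
Nupr1: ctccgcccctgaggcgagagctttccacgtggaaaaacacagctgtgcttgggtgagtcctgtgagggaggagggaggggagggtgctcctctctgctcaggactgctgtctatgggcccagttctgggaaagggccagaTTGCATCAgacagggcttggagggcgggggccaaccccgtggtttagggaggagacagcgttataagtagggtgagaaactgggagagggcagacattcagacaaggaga
Slc7a11 holds 2 matches in opposite directions and the other genes 1 each. Trib3, Ddit3 and Psph, which were among the lowest members, hold none in these 250 bases. Trib3 does hold 1 in the full 300 bases searched and is counted above as a gene with a match.

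Slc7a11, the cystine importer that feeds glutathione synthesis, was at 46.7 and 49.9 CPM in WT and 10.7 and 8.02 in KO. Asns, asparagine synthetase, was at 219.7 and 222 CPM in WT and 133 and 143 in KO. Chac1, which degrades glutathione, was at 22.7 and 23.2 CPM in WT and 10.7 and 11.0 in KO. In these 3 genes both KO libraries lay below WT, by -2.38 ± 0.14, -0.68 ± 0.07 and -1.08 ± 0.14. Nupr1, a small stress-induced chromatin protein, differed least of the 4 (-0.25 ± 0.07, adjusted p = 0.00531).

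The pseudokinase gene Trib3 was at 170.2 and 181 CPM in WT and 61.0 and 57.8 in KO (-1.57 ± 0.07, adjusted p = 4.34e-13). Ddit3, which encodes the stress factor CHOP, was at 379 and 433 CPM in WT and 189 and 196 in KO (-1.08 ± 0.08). Ppp1r15a, the phosphatase subunit that resets eIF2alpha, was at 75.6 and 80.9 CPM in WT and 30.2 and 29.7 in KO (-1.39 ± 0.09). The 3 genes thus stood in KO at less than their lowest WT library. Stc2, a secreted stanniocalcin counted in the HIF list too, was at 18.7 and 18.6 CPM in WT and 2.65 and 3.31 in KO. The enzymes of serine synthesis, Phgdh (-0.31 ± 0.07), Psat1 (-0.48 ± 0.06) and Psph (-1.17 ± 0.08), and those of mitochondrial one-carbon metabolism, Shmt2 (-0.60 ± 0.06) and Mthfd2 (-0.83 ± 0.08), were all lower. Vldlr, a lipoprotein receptor, fell from 233 and 224 CPM to 74.4 and 79.0 (-1.57 ± 0.07).

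Genes that supply and charge amino acids followed in part. The amino acid transporter list shares Slc3a2, Slc7a11 and Slc7a5 with the stress response list. Of its 31 genes tested, 14 were lower and 4 higher, with a median of -0.53. Besides Slc7a11 and the nearly unread Slc6a15, the lower ones included the arginine and lysine carrier Slc7a1, at 255 and 274 CPM in WT and 119.8 and 118 in KO, and the shared heavy chain Slc3a2, at 289 and 288 CPM in WT and 163 and 165 in KO. Slc38a2, the glutamine carrier with the most reads among those not called, was at 485 and 499 CPM in WT and 543 and 531 in KO (0.13 ± 0.07, adjusted p = 0.153). The aminoacyl-tRNA synthetase list shares Cars with the stress response list. Of its 37 synthetases, 15 were lower and 3 higher, none by more than 2-fold, with a median of -0.14. The largest drop among them was in Yars, which charges tyrosine, from 228 CPM in both WT libraries to 125 and 126 in KO (-0.86 ± 0.07, adjusted p = 6.27e-09).

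The chaperones of the endoplasmic reticulum did not share one direction. Of 23 tested, 10 were lower (5 without WT replicate 2 or KO replicate 1) and 4 higher, and their summed level was 7409 and 7379 CPM in WT and 7652 and 7585 in KO. The main chaperone Hspa5 was at 1012 and 1062 CPM in WT and 1014 and 996 in KO, overlapping and not called (-0.05 ± 0.07, adjusted p = 0.629). Calr, the calcium-binding calreticulin, was higher, at 646 and 691 CPM in WT and 1092 and 1089.5 in KO (0.71 ± 0.07). Herpud1, which serves the degradation of misfolded proteins, was lower, at 81.4 and 87.9 CPM in WT and 45.4 and 40.5 in KO (-0.98 ± 0.12).

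Hox genes lie in 4 clusters and record the position of a cell along the body axis, and their pattern is usually kept by cells in culture. At day 1, 17 of 32 tested Hox genes were higher in KO and 3 lower (53.1% and 9.38%, against 19.5% and 20.8% of all genes), with a median of 0.36 and summed levels of 272 and 274.9 CPM in WT and 412.9 and 403 in KO. The largest gains stood in the Hoxd and Hoxb clusters. Hoxd4 (ENSMUSG00000101174.8, chromosome 2, 74711929 to 74729160, plus strand) was at 0.065 and 0.197 CPM in WT and 5.04 and 5.89 in KO (5.29 ± 0.47, adjusted p = 1.66e-08). Hoxd8 (chromosome 2, 74704615 to 74707933, plus strand) was at 0.65 and 0.656 CPM in WT and 9.74 and 11.6 in KO. Hoxd3 (chromosome 2, 74711927 to 74748442, plus strand) had 0 counts in both WT libraries and 15 and 16 in KO, and was the only gene of this kind. These genes were silent or nearly so in WT and low but plainly read in KO. Hoxd3 and Hoxd4 share exons and overlap antisense genes, so their reads cannot be divided with certainty.

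In the Hoxb cluster on chromosome 11, Hoxb9 was at 8.26 and 8.99 CPM in WT and 36.3 and 32.3 in KO (1.99 ± 0.13, adjusted p = 1.16e-10). Hoxb8 was at 1.3 and 1.12 CPM in WT and 9.23 and 13.8 in KO, and Hoxb5 at 0.455 and 0.722 against 7.09 and 4.05. Hoxb6 was at 3.77 and 3.08 CPM in WT and 12.5 and 12.1 in KO. All 4 were higher in both KO libraries. At the edges of the cluster Hoxb13 and Hoxb2 had few reads and were lower, with 12 and 13 counts of Hoxb2 in WT and 1 and 0 in KO. With a filter of at least 1 CPM in 2 libraries of day 1, no Hox gene was called lower, while 1 was with DESeq2, without WT replicate 2 and without either KO replicate, against 3 in all 4 libraries. Hoxa10, at 21.8 and 20.3 CPM in WT and 23.4 and 22.7 in KO, and Hoxa5 were not called, and Hoxc6 was higher by a smaller step (0.45 ± 0.11).

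Among 57 other patterning factors 22 were higher and 12 lower (38.6% and 21.1%). Zic2, a zinc finger factor of the neural tube and limb, was at 0.195 and 0.853 CPM in WT and 8.8 and 8.17 in KO (3.99 ± 0.34). Pax3, a paired box factor of muscle and neural crest, was at 36.2 and 37.1 CPM in WT and 88.6 and 86.7 in KO, and Pax6 at 2.08 and 1.77 against 9.14 and 10.1. Prrx1, a limb mesenchyme factor, was at 763 and 754 CPM in WT and 1268 and 1248 in KO. Against these gains, the craniofacial homeobox gene Alx1 had 100 and 82 counts in WT and 0 in both KO libraries, which is at least 50.1-fold lower. The next tested gene on chromosome 10 is Slc6a15, which was also nearly unread in KO. Lhx2, a LIM homeobox factor, fell from 13.8 and 13.7 CPM to 2.82 and 3.53, and Emx2 from 37.8 and 45.8 to 18.7 and 17.4. Shox2 and Twist1, both of limb and skeletal mesenchyme, were not called (-0.09 ± 0.06 and -0.13 ± 0.11).

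A set of genes was read in WT and almost absent from KO. With at least 1 CPM in both libraries of one line and at most 3 counts over both libraries of the other, 94 genes were read in WT alone and 1, Hoxd3, in KO alone. Of the 94, 25 had 0 counts in KO and 8 had a mean of at least 10 CPM in WT. Zmym6, a zinc finger protein gene (chromosome 4, 127077383 to 127124372, plus strand), had 548 and 553 counts in WT and 0 and 1 in KO. Slc6a15, a carrier of branched-chain amino acids, had 472 and 552 counts in WT and 2 and 1 in KO, a ratio of 282 (exact 95% interval 96.2 to 1370). Gpx7, a peroxidase of the endoplasmic reticulum, had 225 and 220 counts in WT and 1 and 0 in KO. These intervals and bounds cover counting error only. The neuronal microtubule gene Map2 had 204 and 221 counts against 1 and 0, and Pde1c, a calmodulin-dependent phosphodiesterase, 175 and 144 against 1 and 2. Tmod2, a cap of actin filament ends (chromosome 9, 75565621 to 75611325, minus strand), had 156 and 163 counts in WT and 0 in both KO libraries, which is at least 87.8-fold lower.

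Of the 94 genes, 58 also had at most 3 counts over both KO libraries at day 14, 44 at day 28 and 39 at both. Lama2, a laminin chain of muscle basement membrane, had 138 and 107 counts in WT and 0 and 2 in KO at day 1, and 425 against 7 at day 28. Map2, in contrast, had 67 counts over both KO libraries at day 28 against 1258 in WT. No WT pair at day 14 and 1 at day 28 had 3 counts or fewer for these genes. Just outside the limit of 3 counts lay Hpse, the heparan sulfate-cleaving heparanase, with 382 and 359 counts in WT and 1 and 3 in KO (-7.17 ± 0.28), and Armcx4, with 541 and 466 against 4 and 3.

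**Figure D3:**
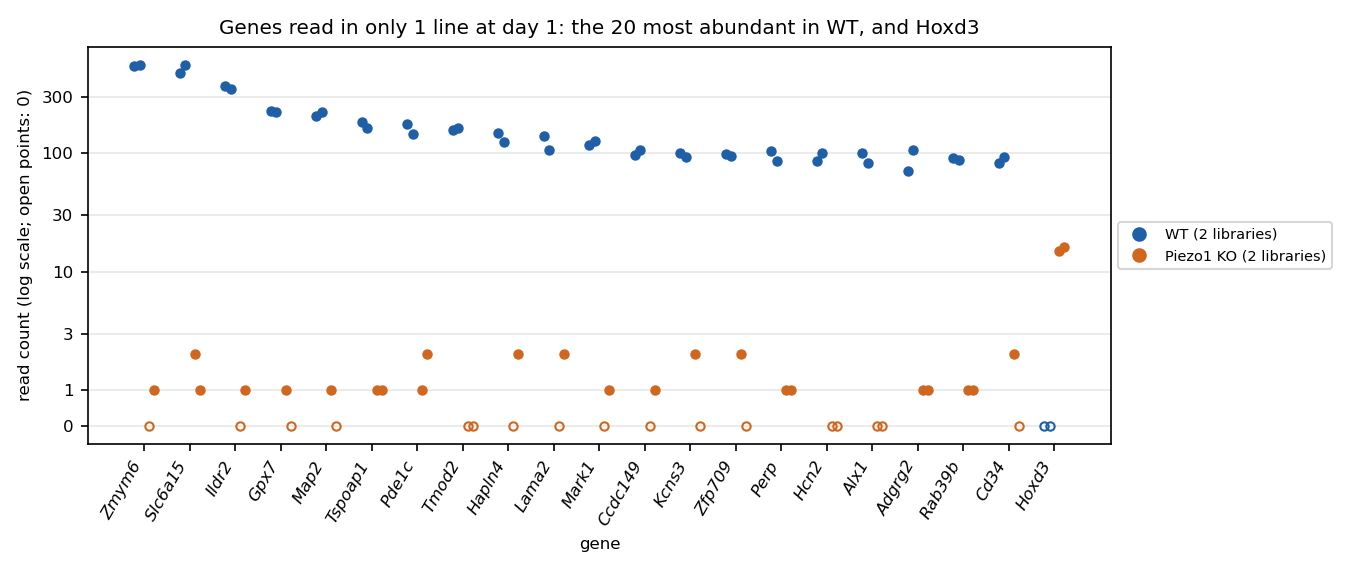
Read counts at day 1 (log axis, with 0 drawn as an open point below 1) of the 20 genes with the most reads in WT among the 94 that had at most 3 counts over both KO libraries, and of Hoxd3. WT libraries (blue) hold between 70 and 553 counts of each of the 20 genes and KO libraries (orange) 0 to 2, while Hoxd3 has 0 counts in WT and 15 and 16 in KO.

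Some of the low genes are neighbours. In every run of 7 neighbouring tested genes the median log2 fold change was computed. The lowest, -4.30, was that of overlapping runs on chromosome 16 from 23965052 to 29654884. There P3h2, a collagen prolyl 3-hydroxylase, had 371 and 373 counts in WT and 20 and 8 in KO, and the interleukin receptor subunit Il1rap had 95 and 101 against 4 and 4. Trp63, Ostn and Ccdc50 in these runs were lower as well, as were the outermost genes Bcl6 and Opa1. Lpp and Mb21d2, next to those outermost genes, were not called. P3h2 shares exons with Gm4524 on the opposite strand. A second run on the X chromosome, from 160390690 to 162643649, included Adgrg2, Ppef1, Scml2 and Reps2, all lower, Phka2, which was not called, and Nhs, which was higher (0.88 ± 0.13). On chromosome 10, a run from 102998707 to 106935952 held Alx1 and Slc6a15 as neighbours, with a median of -1.62 and 4 genes lower. The highest medians were those of the Hoxd run (4.02) and of a run in the Hoxb cluster (1.99).

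Whole chromosomes differed by less but with many genes. On chromosome 1, 482 of 821 genes tested were higher in KO (58.7%) and 70 were lower (8.53%), with a median log2 fold change of 0.38. On chromosome 5, 428 of 868 were lower (49.3%) and 33 higher (3.8%), with a median of -0.30. Chromosome 16 (204 of 430 lower, median -0.30) and chromosome 19 (203 of 468 lower, median -0.26) were like it, and chromosome 4 had a median of -0.18. Chromosome 15 was shifted upward, with 203 of 562 genes higher (36.1%) and a median of 0.17. The medians of the other chromosomes lay between -0.10 and 0.13. The shifts were alike on later days, with chromosome 1 at 0.41 and 0.40 and chromosome 5 at -0.29 and -0.29 on days 14 and 28. When each chromosome's median was taken out, 4349 genes were called, 67.4% of the 5544 genes remained called and 10 of those had the opposite sign.

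**Figure D4:**
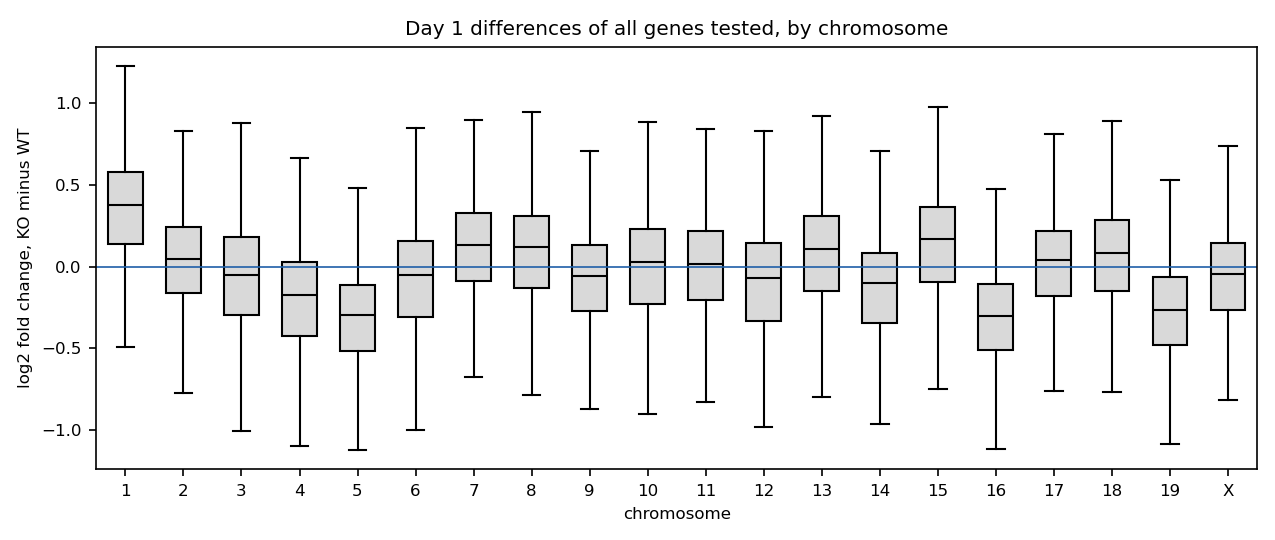
Boxes of the log2 fold change (KO minus WT) at day 1 of all genes tested on each chromosome, with the median as the line in the box, the box from the lower to the upper quartile and whiskers to the last gene within 1.5 box lengths. The box of chromosome 1 lies above 0 (median 0.38), and those of chromosomes 5, 16 and 19 lie below it (medians -0.30, -0.30 and -0.26).

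Bone matrix is mostly fibrillar collagen I, with basement membrane collagens at cell surfaces and vessels. Of 34 collagen chains tested, 17 were lower and 7 higher (50% and 20.6%), 13 of them lower by more than 2-fold, with a median of -0.51. Basement membrane chains were among the lowest. Col4a1 was at 66.9 and 73.0 CPM in WT and 10.7 and 10.4 in KO, and Col4a2 at 67.4 and 70.7 against 9.48 and 9.42 (-2.73 ± 0.10 and -2.87 ± 0.10). Col4a1 and Col4a2 lie head to head and their exons overlap on opposite strands. Col15a1 (-2.66 ± 0.16) and Col18a1 (-1.62 ± 0.08), which bridge basement membranes to the stroma, and Col8a1 (-1.32 ± 0.09) were lower too. The 3 common chains of collagen VI, Col6a1 (0.53 ± 0.08), Col6a2 (0.77 ± 0.10) and Col6a3, were higher.

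Of the main bone collagen, Col1a1 was at 4884 and 4740 CPM in WT and 6416 and 6512 in KO (0.43 ± 0.16, adjusted p = 0.0335), a call that was lost with DESeq2, without TMM and in fits that left out a library. Col1a2, its partner chain, was at 6036 and 5705 CPM in WT and 5956 and 6006 in KO and was not called (0.03 ± 0.11, adjusted p = 0.866). The summed collagen level was 22550 and 21760 CPM in WT and 25570 and 25670 in KO although more chains were lower than higher.

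Enzymes that hydroxylate and cross-link collagen were lower more often than higher, 14 against 5 of 27. Beside the HIF targets P4ha1, P4ha2 (-1.23 ± 0.10) and Plod2 (-0.96 ± 0.07), they included the lysyl oxidases that form cross-links. Loxl2 was at 189 and 193 CPM in WT and 48.4 and 51.1 in KO, Loxl4 at 70.3 and 74.6 against 24.5 and 22.4, and Lox at 203 and 204 against 92.9 and 88.3. In all 3 both KO libraries stood below WT, by -1.94 ± 0.12, -1.63 ± 0.10 and -1.17 ± 0.14. The collagen chaperone Serpinh1 was at 739.9 and 755 CPM in WT and 732 and 744 in KO and was not called (-0.02 ± 0.06).

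Of 30 other matrix proteins 14 were higher (9 without WT replicate 1 or either KO replicate) and 12 lower, so most differed but in both directions. Vcan, a large hyaluronan-binding proteoglycan, was at 29.5 and 30.3 CPM in WT and 106 and 103 in KO (1.81 ± 0.09). Nid1, which ties laminin to collagen IV, was at 29.2 and 31.6 CPM in WT and 0.854 and 1.03 in KO (-4.99 ± 0.27), while its relative Nid2 was higher (0.38 ± 0.07). Eln, the elastic fibre protein, was at 12.0 and 11.0 CPM in WT and 0.513 and 0.441 in KO, and the microfibril gene Fbn1 fell too (-1.55 ± 0.12). Laminin chains were also split. Lama4 (0.98 ± 0.10), Lamb1 (0.82 ± 0.11) and Lamc1 (0.39 ± 0.06) were higher, and Lama1 (-0.72 ± 0.09), Lama5 (-2.24 ± 0.29) and the nearly unread Lama2 were lower. Of the matrix proteases, Mmp2 rose from 184 and 174 CPM to 309.6 and 326, and Timp3, an inhibitor held in the matrix, fell from 326 and 362 to 147 and 139.

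Markers of the bone lineage were present in both lines at day 1. Runx2 and Sp7, the master factors of osteoblasts, were at 189 to 220 and 260 to 280 CPM over the 4 libraries, and neither was called (0.02 ± 0.09 and 0.08 ± 0.15). The markers of mature osteocytes were scarce in both lines, with Dmp1 at 3.68 to 6.5 CPM, Sost at 0.515 to 1.3 and Mepe at 0.919 to 1.28, and none of them was called. Of 24 osteoblast and mineralization genes 6 were higher and 7 lower. With DESeq2, without TMM or with chromosome medians taken out, 2 or 3 were higher. Fewer were also higher without WT replicate 1 or either KO replicate. Of 17 osteocyte markers 4 were higher and 4 lower. Ibsp was the lower gene with the most reads. Alpl, the phosphatase that frees phosphate for mineral, was at 791 and 842 CPM in WT and 535 and 541 in KO (-0.60 ± 0.14), and Enpp1, which makes the mineral inhibitor pyrophosphate, fell from 5.14 and 5.91 to 1.28 and 1.18. Phex, an osteocyte peptidase, was higher, at 4.55 and 6.1 CPM in WT and 11.4 and 10.1 in KO (1.01 ± 0.20). Tnfrsf11b, the decoy receptor that holds back osteoclasts, was lower, at 54.4 and 55.9 CPM in WT and 26.8 and 24.9 in KO (-1.09 ± 0.13).

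Genes of the contractile cytoskeleton were higher in KO more often than those of any other list of nuclear genes with 10 or more members tested, 28 of 38 (73.7% against 19.5% of all genes), with 5 lower and a median of 0.45. Acta2, smooth muscle actin, was at 162 and 155 CPM in WT and 292 and 291 in KO. Tpm1, a tropomyosin, was at 1048 and 990 CPM in WT and 1525 and 1514 in KO. Nes, the intermediate filament nestin, was at 169 and 162 CPM in WT and 339.9 and 326 in KO. In these 3 genes the KO libraries lay above WT by 0.88 ± 0.07, 0.58 ± 0.07 and 1.01 ± 0.07. The non-muscle myosin gene Myh10 (0.58 ± 0.06) and the light chain gene Myl9 (0.73 ± 0.08) rose, and Myh9, the myosin with the most reads, was not called (0.15 ± 0.07, adjusted p = 0.0929). Against the list's direction, filamin C, Flnc, fell from 174 and 176 CPM to 87.8 and 86.7, and Cnn1, calponin, from 3.51 and 4.72 to 0.342 and 0.441. Among tropomodulins, Tmod1 rose (1.43 ± 0.17) while Tmod2 was lost.

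Integrins, the receptors that couple matrix to actin, differed little, with 2 of 19 higher and 4 lower. Itgb1, the common beta chain, was at 1461 and 1389 CPM in WT and 1586 and 1579.6 in KO and was not called (adjusted p = 0.0669). Itga9 (-2.21 ± 0.30) and Itga7 (-0.78 ± 0.12) were lower. The YAP/TAZ list, coactivators that follow cell tension and their targets, had 7 higher and 9 lower of 28, with a median of 0.04. The higher ones were F3, Amot, Arhgef17, Tead2, Fjx1, Ptpn14 and Axl. Yap1 was not called, while Wwtr1, which encodes TAZ, was lower, at 256 and 262 CPM in WT and 189.9 and 189 in KO (-0.45 ± 0.08). The target Ankrd1 fell from 19.3 and 19.6 CPM to 5.64 and 5.81 (-1.76 ± 0.15), Ccn1 by a smaller step (-0.28 ± 0.07), and Ccn2 was not called (-0.02 ± 0.15).

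Of 26 stretch-gated and mechanosensitive channel genes, Piezo1 included, 5 were higher and 7 lower (3 with chromosome medians taken out). Piezo2, a relative best known from touch neurons, was at 30.6 and 29.99 CPM in WT and 0.94 and 1.03 in KO (-4.93 ± 0.19). Trpv4 (0.53 ± 0.12), the calcium channel gene Cacna1c (1.46 ± 0.18) and Tmem63a (0.47 ± 0.08) were higher, and the polycystin gene Pkd2 (-0.44 ± 0.06) and the potassium channel gene Kcnk2 (-1.08 ± 0.22) were lower. Of 27 potassium channel genes 15 were lower (9 without KO replicate 2) and 5 higher, with a median of -0.98. Most were scarce, and the one with the most reads, Kcnma1, a calcium-activated channel, was at 80.4 and 85.2 CPM in WT and 52.9 and 48.8 in KO (-0.71 ± 0.11). Of connexins and purine receptors, through which osteocytes signal, Gja1 was at 49.3 and 48.5 CPM in WT and 68 and 65.6 in KO (0.45 ± 0.10), and the ATP receptor gene P2rx7 rose from 20.3 and 21.3 to 50.6 and 51.4 (1.30 ± 0.10).

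Wnt signals build bone, and their secreted inhibitors restrain it. Of 25 Wnt ligands and receptors 9 were higher and 3 lower, and of 25 inhibitors and feedback genes 9 were higher and 3 lower, 36% and 12% in each list. The ligand Wnt6 was at 8.52 and 10.2 CPM in WT and 50.7 and 52.6 in KO (2.47 ± 0.12). The non-canonical Wnt receptor gene Ror1 was at 0.585 and 1.05 CPM in WT and 12.1 and 12.3 in KO (3.89 ± 0.27). Lrp5, the coreceptor tied to human bone mass, was lower, at 83.8 and 78.0 CPM in WT and 64.8 and 59.4 in KO (-0.38 ± 0.07). Of the inhibitors, Sfrp1, which traps Wnts, was at 3.97 and 4.92 CPM in WT and 62.4 and 58.4 in KO (3.76 ± 0.14), and Wif1 at 16.51 and 16.996 against 40.7 and 40.8. Lef1 (0.84 ± 0.13) and Rnf43 (0.84 ± 0.10), which respond to beta-catenin, were higher as well, and Nkd2 fell from 10.7 and 12.5 CPM to 0.683 and 0.883.

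Of 18 BMP and TGF-beta ligand genes 6 were higher and 5 lower, and of 35 receptors, SMADs and antagonists 5 were higher and 13 lower (8 without WT replicate 2 or KO replicate 2). The activin chains diverged. Inhba was at 185 and 179 CPM in WT and 62.6 and 63.0 in KO (-1.54 ± 0.08), and Inhbb at 6.89 and 6.3 against 41.7 and 45.0 (2.71 ± 0.18). Tgfb1 (0.53 ± 0.10) and Bmp2 (0.35 ± 0.07) were higher. In the list of receptors, SMADs and antagonists, Skil (-1.22 ± 0.09) and Smad7 (-0.55 ± 0.13), which TGF-beta can induce, were lower. Bambi of the same list was higher, at 1.04 RPKM in WT and 1.8 in KO. The activity of the pathway was not tested. The BMP antagonist Grem1 fell from 9.36 and 9.65 CPM to 2.82 and 2.72, and Gdf15, a stress-induced member of the family, from 9.75 and 10.3 to 1.62 in both KO libraries.

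In the FGF, PDGF and IGF list 12 of 28 were lower and 5 higher. Igfbp2, which binds insulin-like growth factors, was at 34.1 and 35.1 CPM in WT and 1.28 and 1.25 in KO (-4.76 ± 0.18, adjusted p = 2.91e-14), and Igfbp5 rose from 161 and 171 to 374 and 377 (1.18 ± 0.14). The ligands went opposite ways, with Igf2 at 44.3 and 48.4 CPM in WT and 10.5 and 9.64 in KO and Igf1 at 6.11 and 6.04 against 14.7 and 12.9. The receptors Fgfr1 (0.39 ± 0.09) and Fgfr2 (0.50 ± 0.10) were higher, and Igf1r was not called (0.05 ± 0.07). Of 17 Notch genes 4 were higher and 4 lower, among them Rbpj, the DNA-binding partner of Notch, which fell from 135 and 132 CPM to 75.2 and 66.8.

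Guidance molecules and cadherins differed in both directions. Of 58 axon guidance genes 13 were higher and 20 lower. Sema3d was at 75.8 and 78.9 CPM in WT and 2.56 and 5.15 in KO (-4.29 ± 0.16), while Sema3a, which protects bone, was at 49.0 and 54.9 against 100.97 and 96.9 (0.93 ± 0.08). Slit2 (1.25 ± 0.08) and Plxna2 (1.23 ± 0.12) were higher. Of 37 cadherins and protocadherins 13 were higher and 9 lower. Many protocadherins are neighbours on chromosome 18, where runs of Pcdhb genes had medians of 0.95 to 1.01. Runs of Pcdhga and Pcdhgb genes had a median of -2.47. Cdh11, the cadherin of osteoblasts, was at 612 and 619.6 CPM in WT and 949 and 945 in KO (0.62 ± 0.08), and Cdh2 was not called (0.13 ± 0.10).

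Genes of division and replication were higher in KO, 21 of 33 (63.6% against 19.5% of all genes) with 2 lower and a median of 0.29. Cenpf, a kinetochore gene, was at 577 and 550.1 CPM in WT and 943 and 947 in KO. Cenpf lies on chromosome 1, where 58.7% of the genes tested were higher, and its call was kept with chromosome medians taken out. Plk1, a mitotic kinase, was at 25.8 and 26.0 CPM in WT and 46.7 and 45.5 in KO. Ccne1, the cyclin of S phase entry, was at 16.9 and 15.2 CPM in WT and 33.1 and 34.7 in KO. The KO libraries lay above WT in all 3 (0.75 ± 0.07, 0.83 ± 0.09 and 1.08 ± 0.13). Mki67 rose by 0.43 ± 0.06, Mcm4 (-0.17 ± 0.06) and Mcm7 (-0.29 ± 0.08) were lower except when chromosome medians or some single libraries were taken out, and Bub1b and Kif11 were not called. Of 14 G1 genes, Ccnd1 rose from 76.7 and 85.8 CPM to 116 and 119, and the inhibitor Cdkn2b fell from 44.0 and 49.0 to 25.7 and 27.6.

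Of 23 targets of p53, the factor that arrests damaged cells, 10 were higher and 4 lower. Ccng1 was at 81.6 and 75.9 CPM in WT and 158 and 159 in KO, Trp53inp1 at 44.3 and 48.8 against 130.4 and 129, and Phlda3 at 35.1 and 31.9 against 88.3 and 89.1. These 3 rose without overlap (1.01 ± 0.07, 1.48 ± 0.08 and 1.40 ± 0.10), while Cdkn1a, the best known target, was not called (0.21 ± 0.09, adjusted p = 0.0636) and neither was Trp53. Phlda3 also lies in high runs of neighbouring genes on chromosome 1, with a median of 0.91. Perp had 104 and 86 counts in WT and 1 in each KO library, and Gadd45a fell from 55.9 and 54.1 CPM to 22.7 and 21.9. In the proteasome, which degrades tagged proteins, 23 of 37 subunits were higher and 2 lower, with a median of 0.28. Psmd1 was at 412 and 408 CPM in WT and 734 and 732 in KO (0.84 ± 0.06). The immunoproteasome subunit Psmb8 went the other way, from 13.9 and 14.2 CPM to 2.65 in both KO libraries. Psmd1 lies on chromosome 1, where 58.7% of the genes tested were higher, and its call was kept with chromosome medians taken out.

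Respiratory chain genes were higher more often than lower. Of 76 subunits encoded in the nucleus 26 were higher and 5 lower (34.2% and 6.58%), by small steps with a median of 0.17. Cox5b, a subunit of cytochrome oxidase, was at 140.3 and 147 CPM in WT and 231 and 229 in KO (0.68 ± 0.06). Cox5b lies on chromosome 1, where 58.7% of the genes tested were higher. Its call was kept with chromosome medians taken out. Of 12 genes of the mitochondrial genome 9 were higher and 0 lower, with a median of 0.61. mt-Nd1 was at 1299 and 1689 CPM in WT and 2682 and 2695 in KO (0.85 ± 0.10), and mt-Co1 at 4891 and 6301 against 7754 and 7880. The WT replicates differed from each other here, with a summed level of 12910 and 17180 CPM against 22910 and 22880 in KO, and without WT replicate 1 5 of the 12 were called higher.

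Of 81 cytosolic ribosomal protein genes 36 were lower (44.4% against 20.8%) and 4 higher, none by more than 2-fold, and the median was -0.16. Rplp0 was at 683 and 689.6 CPM in WT and 468 and 463 in KO (-0.56 ± 0.07), and Rpl7 rose from 507 and 518 to 672 and 691 (0.41 ± 0.06). Without WT replicate 1 22 were lower and without KO replicate 1 21 were. Of 31 antioxidant genes 15 were higher and 2 lower (48.4% and 6.45%). Nqo1, a target of the factor NRF2, was at 13.5 and 12.9 CPM in WT and 23.5 and 25.4 in KO, and the 2 lower ones were Gpx7 and Prdx5 (-0.61 ± 0.07). Sterol genes were split, with 9 of 32 higher and 7 lower (4 without KO replicate 2). Dhcr7, the last enzyme of cholesterol synthesis, rose from 20.5 and 18.9 CPM to 41.7 and 39.1, and the lipogenic factor gene Srebf1 fell from 132 and 127 to 61.7 and 65.6.

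Of 22 NF-kB feedback genes and chemokines 11 were lower and 1 higher (50% and 4.55%), with a median of -0.48. Tnfaip3, the feedback inhibitor A20, was at 13.1 and 13.8 CPM in WT and 6.41 and 6.11 in KO (-1.11 ± 0.17), and Rela, a subunit of NF-kB, at 81.1 and 90.4 against 61.8 and 66.4. The higher gene was Cxcl12, the chemokine that holds blood stem cells in marrow, at 79.5 and 87.1 CPM in WT and 153 in both KO libraries (0.88 ± 0.08). Of 27 interferon-stimulated genes 9 were lower (5 without KO replicate 1) and 3 higher at day 1, with Isg15 at 11.7 and 11.6 CPM in WT and 5.04 and 5.81 in KO. H2-K1, an MHC class I gene, was lower (-1.31 ± 0.07), and B2m, its light chain, was higher (0.26 ± 0.06). Immediate early genes had 7 higher (4 without KO replicate 2) and 9 lower of 30. Egr1 and Jun were not called, Nr4a1 was at 25.3 and 33.7 CPM in WT and 43.6 and 44.0 in KO, and Myc fell from 107 and 121 to 71.1 and 73.5.

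Markers of other cell types were read next, each sum being over the members tested. Blood cell markers summed to 11.12 and 13.12 CPM in WT and 13.67 and 10.45 in KO, with 0 of 6 tested members called. Endothelial markers summed to 9.298 and 11.62 CPM in WT and 3.246 and 2.428 in KO, where 1 of 5, Cd34, was lower. Of 11 skeletal muscle markers 4 had no count at day 1 and 3 were tested (Des higher, Tnnt2 lower, Acta1 not called), with sums of 12.48 and 10.7 CPM in WT and 10.76 and 8.461 in KO. Of 10 epithelial markers only Cdh1 had enough reads to be tested, at 2.73 and 3.54 CPM in WT and 0.0854 and 0.441 in KO. Adipocyte markers were higher in WT, with sums of 57.41 and 65.1 CPM against 29.47 and 27.0 in KO, and of 9 tested 4 were lower and 1 higher. Among them Klf15 fell from 28.3 and 32.7 CPM to 1.03 and 1.18, and Pparg, the master factor of fat cells, had 74 and 81 counts in WT and 0 and 2 in KO. Klf15 also lies in low runs of neighbouring genes on chromosome 6, with medians of -2.11 to -1.92. The higher adipocyte marker was Cebpa, at 3.6 RPKM in WT and 7.58 in KO. Adipoq and Fabp4, products of mature fat cells, were not called, and Lep, Plin1 and Cidec had too few reads to be tested. Chondrocyte markers had 5 of 10 lower (3 with DESeq2, and fewer without WT replicate 2 or KO replicate 2) and 2 higher. Hapln1 was at 20.03 and 19.9 CPM in WT and 2.14 and 2.13 in KO, and Sox9 at 46.4 and 46.1 against 59.3 and 56.0. The part of any such cells in the results was not tested.

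The same comparison at days 14 and 28 called 49.7% and 41% of the genes tested (23.8% higher and 25.9% lower at day 14, 19.8% higher and 21.2% lower at day 28). Of the 2685 genes higher at day 1, 1756 (65.4%) were also called higher at day 14 and 1312 (48.9%) at day 28. Of the 2859 lower genes 1942 (67.9%) were also lower at day 14 and 1482 (51.8%) at day 28. In the opposite direction were 121 and 193 of the higher genes and 108 and 191 of the lower. The difference between days was tested itself, as an interaction, and was called in 2595 genes (18.8%, with 9.19% higher and 9.65% lower than at day 1) for day 14 and 2759 (20%, with 10.6% higher and 9.46% lower) for day 28.

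The median of the HIF targets was lowest at day 1. For 17 of the 29 HIF targets the KO minus WT value was higher at day 14 than at day 1, and for 16 at day 28, and it was lower for 0, while the list's median went from -1.55 at day 1 to -0.60 at day 14 and -0.74 at day 28. Vegfa was -1.72 at day 1, -0.89 at day 14 and -0.46 at day 28, and both steps from day 1 were called (0.82 ± 0.09 and 1.26 ± 0.09). For glycolysis 15 of 32 genes were less low at day 14 and 0 lower, but at day 28 5 were higher and 4 lower than at day 1. For Slc2a1 the steps from day 1 were 0.85 ± 0.14 and 1.55 ± 0.14.

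The stress response followed another course. Of its 28 genes 26 were lower in KO at day 14 as well, with a median of -1.06, and at day 28 9 were higher and 9 lower, with a median of 0.05. For 23 of the 28 the value at day 28 was higher than at day 1. Trib3 was -1.57 at day 1, -2.69 at day 14 and 0.10 at day 28. Endoplasmic reticulum chaperones, mixed at day 1, were lower in 22 of 23 at day 14 (median -1.47) and higher in 16 at day 28 (median 0.31), and Hspa5 went from -0.05 to -2.28 and 0.31. Interferon-stimulated genes had 9 of 27 lower at day 1, 23 at day 14 and 26 at day 28, and for 16 of them at each later day the value was lower than at day 1. Of the 32 Hox genes 17 were higher and 2 lower at day 14, and 15 were higher and 1 lower at day 28.

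**Figure D5:**
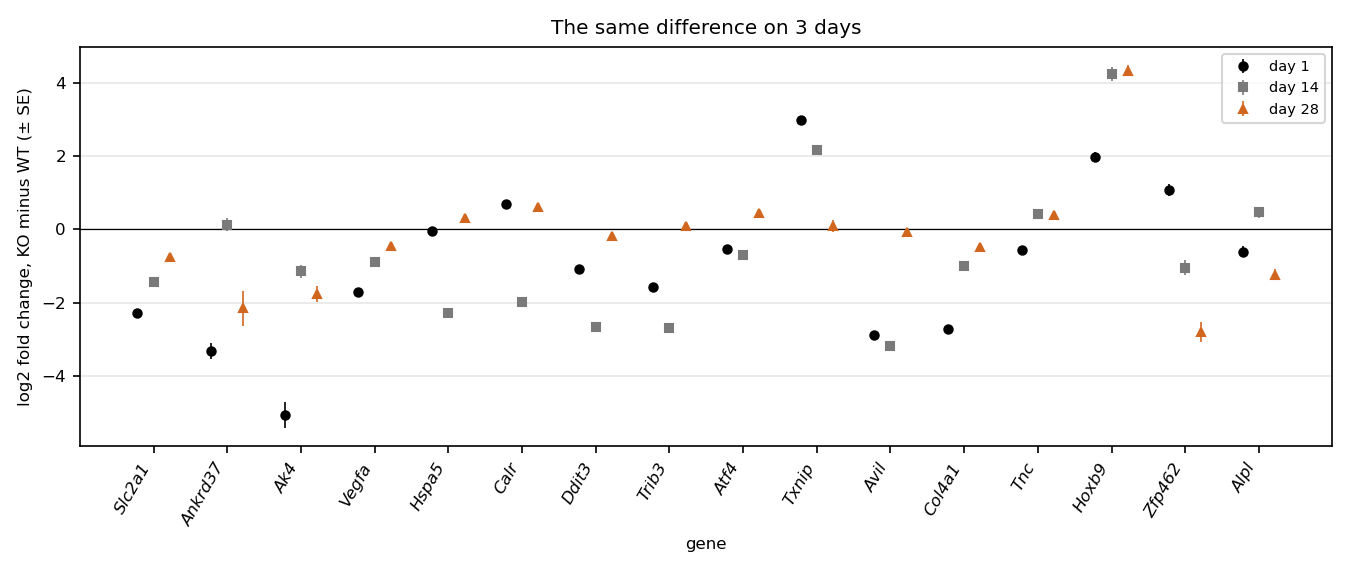
Log2 fold change (KO minus WT) with its standard error at days 1 (black circles), 14 (grey squares) and 28 (orange triangles) for 16 genes whose difference depended on the day. Slc2a1, Vegfa, Ak4 and Col4a1 are lowest at day 1, Trib3, Ddit3, Calr and Hspa5 lowest at day 14, Txnip falls to 0.09 at day 28, and Hoxb9 is higher on the later days.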

How the data were processed

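Poly(A) RNA of 12 libraries of OCY454 cells was measured, of which the 4 of day 1 are described here. Per the submitters' processing notes, the authors worked with STAR, featureCounts (Subread), edgeR and the mm10 build, and the deposited values are raw read counts per gene symbol. No version, annotation or strand setting is stated there. The table has 32248 rows, of which 9345 have no count and 3 are transgene rows, which were left out of the tests.

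Counts were fitted with edgeR 4.0.16 in R 4.3.3 over all 12 libraries in 6 groups of line and day, with TMM scaling and a minimum count of 10 and a minimum total of 15, which left 13772 genes. Groups were compared with the quasi-likelihood F test and Benjamini-Hochberg adjustment over all genes tested, with a threshold of 0.05. All adjusted p-values in the text come from that edgeR fit. The dispersion is shared by all groups, with 6 residual degrees of freedom among samples. CPM use the TMM-scaled library sizes, and RPKM divide them by exon length in GENCODE vM21. On simulated data for the day 1 comparison with 13772 genes, 67 genes were changed 1.5-fold, 67 2-fold and 66 4-fold. All others were left alike. Of the changed genes 67.2%, 79.1% and 95.5% were recovered, in that order, and 7.47% of calls were false. Far more genes were called in the data than were changed in the simulation, so these rates need not hold for the data.

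The comparison and the gene lists were chosen with earlier results of these data known. Named genes are Piezo1, the 20 highest and 20 lowest log2 fold changes, the 12 largest rises and falls in CPM, up to 8 called genes a list and direction and up to 3 not called, the 10 most abundant on-off genes and the genes with the largest differences between days. Genes of the chromosomal runs, of serine synthesis and with printed promoters, and Runx2, Sp7, Dmp1, Sost, Mepe, Adm, Atf4, Tpi1, Yap1, Ccn2 and Adipoq, were named after their values were seen. Alternatives were DESeq2 1.42.0, other scalings and filters, fewer libraries, a replicate block and leaving out each library. Some genes are not reported here.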

Additional observations from a re-analysis of the deposited data

Results flagged for a closer look

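The KO minus WT difference depended on the day for many genes. By the interaction in the edgeR fit, 2595 genes differed between day 14 and day 1 and 2759 between day 28 and day 1. The values below are the log2 difference of the later day minus that of day 1, and positive values mean a higher KO level relative to WT than at day 1.

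Among HIF targets and glucose genes, Slc2a1 moved by 0.85 at day 14 and 1.55 at day 28, Vegfa by 0.82 and 1.26, and Ak4 by 3.93 and 3.31. Ankrd37 moved by 3.44 at day 14. Txnip went the other way, by -0.84 and -2.90. Among stress genes Hspa5 moved by -2.23 and 0.36, Ddit3 by -1.60 and 0.89, and Trib3 by -1.12 and 1.67. Calr moved by -2.69 at day 14 and Atf4 by 0.97 at day 28. Among matrix and bone genes Col4a1 moved by 1.74 and 2.25, Tnc by 1.00 and 0.96, and Alpl by 1.07 and -0.63. Hoxb9 moved by 2.26 and 2.35, the zinc finger gene Zfp462 by -2.12 and -3.88, and Avil by 2.84 at day 28.

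The table also holds transgene rows that no comparison used. The Tdtomato row had 10 and 7 counts in the WT libraries of day 1 and 3 and 7 in KO. The Cre row had 0 counts in all 4 libraries of day 1. On that day the row labelled YAPS127_P2A_EGFP had 2 and 3 counts in WT and 1 and 0 in KO. At day 14 the YAPS127_P2A_EGFP row had 82 and 45 counts in WT and 1 and 3 in KO. At day 28 it had 224 and 75 in WT and 7 and 2 in KO.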

How the results depend on the processing

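The 5544 calls of day 1 became 5539 without TMM, 5517 with RLE size factors, 5507 without a filter on low counts, 5395 with a filter on CPM, 4562 with DESeq2 and 7041 on the 4 libraries alone. Leaving out each library in turn gave 3821 to 4167 calls. In those fits the lone library of a line is assumed to vary like the other groups. Chosen after seeing the data were a fit without day 28 and one without chromosome shifts: without day 28 there were 6763 calls, and with chromosome medians taken out 4349. With the replicate number as a block there were 5519 calls, and 98.3% of the main calls remained. Replicate 1 of WT and of KO did not deviate together at day 1 (r = -0.0176 across 9336 genes, which are not independent), so the numbers were not read as pairs. Depth limits what can be said of genes with a few counts. Of 1378 counts of called list members under these settings, 122 moved by more than 1.5 times. Where such a count was 6 or more and is printed above, its value is given beside it. Of counts of 3 to 5 genes, those lower in the actin list (5, then 3 without any one library of day 1) and the respiratory chain list (5, then 2 to 8), and those higher in the FGF, PDGF and IGF list (5, then 8 or 9), the BMP receptor list (5, then 3), and the amino acid transporter (4, then 1 or 2), Notch (4, then 1 or 2), ribosomal (4, then 1 or 2) and aminoacyl-tRNA synthetase lists (3, then 0 to 8), moved as well. So did those of G1 genes (3 and 3, then 1 to 6), and those lower in the Wnt ligand list (3, then 5). Counts of 1 or 2 moved in the integrin, connexin, proteasome, mitosis, HIF and marker lists. With chromosome medians taken out, the log2 fold changes of Ccdc50 (0.0619), Fn1 (-0.0548), Mcm4 (0.134) and Mcm7 (0.0098) turned over and were no longer called, and Des, Hoxc6, Lamc1, Lrp5, Pkd2, Rela, Rpl7 and Tmem63a lost their calls. Without 1 library or under another tool, scaling or filter, calls were lost for Ccdc50, Col1a1, Des, Hoxb13, Hoxb2, Mcm4, Mcm7, Nr4a1, Nupr1, Pdk2, Pdk3, Pdk4 and mt-Co1, and the cause was not tested.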
